A study of Mus musculus with 62 samples.

Results

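The genes described here are 7 inwardly rectifying potassium channel genes, Kcnj6 and 6 relatives, among the 27179 gene rows of the count tables. They were taken as the rows, named by Entrez identifiers, whose mouse symbol is Kcnj6 (16522), Kcnj15 (16516), Kcnj3 (16519), Kcnj5 (16521), Kcnj9 (16524), Kcnj10 (16513) or Kcnj4 (16520). All 7 have a row in both tables, and their expression values played no part in the rule. Kcnj6 and Kcnj15 lie in the segment of chromosome 16 that Ts65Dn mice, a model of Down syndrome, carry in 3 copies, and the other 5 genes are in 2 copies.

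The study sequenced polyadenylated RNA of mouse brain to ask how the trisomy changes gene expression, and what a return of Brwd1, another triplicated gene of chromosome 16 that encodes a chromatin reader, to 2 copies does in trisomic animals. Forebrain was collected at E17.5, late in gestation, from 8 euploid and 7 Ts65Dn embryos, whose sex the labels do not give. Hippocampus was collected at 6 weeks from 8 euploid, 7 Ts65Dn and 8 Ts65Dn;Brwd1+/- males, and from 8 females of each of these genotypes. All animals were on a mixed DBA/2J x B6EiC3Sn/J background. Ts65Dn;Brwd1+/- mice keep the trisomy and carry the Brwd1 repro5 mutant allele, which leaves 2 intact copies of Brwd1. As a model, Ts65Dn also carries an extra proximal piece of chromosome 17, which holds no gene related to human chromosome 21. Euploid mice with the Brwd1 allele were not analysed here, so an effect of the allele outside the trisomy cannot be told apart from one within it. The labels do not name litters, and where libraries of a group are not from separate animals, p-values measure a spread that is technical in part.

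G protein-gated inwardly rectifying potassium (GIRK) channels are tetramers that open when an inhibitory neurotransmitter receptor releases G protein beta-gamma subunits at the membrane. The outward potassium current hyperpolarizes the neuron and lowers its firing. In hippocampus, GIRK channels carry the slow inhibitory response to GABA-B, adenosine A1 and serotonin 1A receptors. Kcnj6 encodes GIRK2, the subunit that brings neuronal channels to the surface and can form channels alone. Kcnj3 (GIRK1) and Kcnj9 (GIRK3) encode its main partners in the brain, and Kcnj5 (GIRK4) the subunit best known from the atrium of the heart. Kcnj10 encodes Kir4.1, through which astrocytes take up potassium, Kcnj4 encodes Kir2.3, a strong rectifier of forebrain neurons, and Kcnj15 encodes Kir4.2, a channel best known from kidney and other epithelia.

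A part of the coding sequence that the 4 GIRK subunits and Kcnj10 plainly share is the potassium selectivity filter of the pore, shown here because reads can be assigned to a member only where its bases differ from those of the others. In each of these 5 genes a stretch of 36 bases of the coding strand is printed 5′ to 3′, with the 5 codons of the filter (threonine, isoleucine, glycine, tyrosine, glycine) in capitals. The stretches come from GENCODE M21 transcripts on the GRCm38 (mm10) genome and each lies within 1 coding exon.
Kcnj6: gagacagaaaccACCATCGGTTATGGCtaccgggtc
Kcnj3: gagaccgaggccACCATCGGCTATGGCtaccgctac
Kcnj9: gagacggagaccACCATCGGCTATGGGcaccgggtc
Kcnj5: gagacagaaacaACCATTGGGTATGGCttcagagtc
Kcnj10: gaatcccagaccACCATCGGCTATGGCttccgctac

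The Kcnj6 stretch is at chr16:94832768-94832803 on the minus strand, in exon 3 of 4. The partner subunits have theirs at chr2:55437615-55437650 (Kcnj3, plus strand), chr1:172326175-172326210 (Kcnj9, minus strand) and chr9:32322550-32322585 (Kcnj5, minus strand). That of Kcnj10 is at chr1:172369290-172369325 (plus strand). Over the 10 pairs of these genes, the stretches had 24 to 31 of 36 bases in common. Kcnj6 was closest to Kcnj9 (31 bases) and Kcnj5 (30 bases), and furthest from Kcnj10 (26 bases). The 15 bases of the filter were the same in Kcnj3 and Kcnj10, and differed in every other pair. Across whole transcripts of all 7 genes the longest run of identical bases between any pair was 34 (Kcnj5 and Kcnj10), and the longest run that Kcnj6 had in common with another member was 23 bases (with Kcnj4). The read length is not given in the sources used here.

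The Kcnj6 gene spans chr16:94748636-94997701 on the minus strand and Kcnj15 chr16:95257558-95300260 on the plus strand. Annotated antisense transcripts overlap Kcnj6 (Gm41505), Kcnj15 (Gm31641 and Gm49643) and Kcnj9 (Gm36937), and a long noncoding RNA on the opposite strand (Gm26794) overlaps Kcnj3. None of these transcripts has a row in the tables, and the sources used here do not state that counting used strand, so their reads cannot be told apart from those of the channel genes.

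Libraries held 14.9 to 62.6 M counted reads in embryos and 33.6 to 137.1 M in adults. In 4 libraries labelled as trisomic, the other triplicated genes were at the euploid level: their median log2 ratio to the euploid mean was 0.01 in male Ts65Dn replicate 1, 0.04 and 0.03 in male Ts65Dn;Brwd1+/- replicates 2 and 8, and 0.00 in female Ts65Dn;Brwd1+/- replicate 3, against 0.51 to 0.63 in every other trisomic library. In 2 more libraries (male Ts65Dn replicate 7 and female euploid replicate 7) the sex-linked genes Xist and Ddx3y went against the labelled sex. Female euploid replicate 2 and female Ts65Dn;Brwd1+/- replicate 7 lay far below their groups in Kcnj3 and Kcnj6. The differences of Kcnj6 between genotypes are given with and without these libraries, and no 2-copy member passed when the libraries against their labels were left out. Markers of dentate granule, CA1 and CA3 cells were detected in all adult libraries, with summed levels of at least 153.5, 593.5 and 217.3 CPM (counts scaled to library size). The log2 fold change of Brwd1 between Ts65Dn;Brwd1+/- and Ts65Dn hippocampus was −0.25 in the fit over both sexes (SE 0.07, unadjusted p = 0.00117, edgeR adjusted p = 0.523), and −0.19 without the 4 libraries that lack trisomic dosage (adjusted p = 0.991). In Ts65Dn;Brwd1+/- males with trisomic dosage Brwd1 was at 7.05 to 7.255 log2 CPM, above every euploid male (6.602 to 6.993). In such females it was at 6.793 to 7.281 log2 CPM, against 6.256 to 7.118 in euploid females. Whether transcripts of the mutant allele are among these reads was not tested.

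Levels of different genes were compared as reads per kilobase scaled to library size (RPKM, over all annotated exons). In adult hippocampus, the median over 47 libraries was 47.1 RPKM for Kcnj4, 44.7 for Kcnj10, 26.6 for Kcnj9, 14.5 for Kcnj3 and 8.27 for Kcnj6, and only 0.156 for Kcnj5 and 0.0131 for Kcnj15. Thus, of the GIRK subunits, the GIRK3 transcript had the highest level per exon length, and the GIRK4 transcript was far below the others. The order of GIRK1 and GIRK2 depended on the length used. Over the longest transcript the median of Kcnj6 (17.4 RPKM) was above that of Kcnj3 (14.5 RPKM), and over coding length the medians were 49.5 for Kcnj6 and 50.4 for Kcnj3. Over coding length, Kcnj10 (212.7) and Kcnj9 (96.9) were above Kcnj4 (76.0). Over libraries, the exon-based ranges of Kcnj4 and Kcnj10 overlapped, as did those of Kcnj3 and Kcnj6, whereas the lowest Kcnj9 library (17.9 RPKM) was above the highest Kcnj3 library (17.1 RPKM).

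In E17.5 forebrain every one of these genes except Kcnj5 and Kcnj15 was at a lower level per length than in adult hippocampus. The medians over 15 libraries were 5.06 RPKM for Kcnj10, 2.50 for Kcnj9, 2.34 for Kcnj3, 1.74 for Kcnj4, 0.740 for Kcnj6, 0.722 for Kcnj5 and 0.0644 for Kcnj15. The ranges of Kcnj9 and Kcnj3 overlapped over libraries, as did those of Kcnj6 and Kcnj5. Tissue, age and library set all differ between the tables, so that these differences were not tested. Within its table, Kcnj6 had a level in CPM above that of 28.2% of the genes tested in embryos and 77.3% in adults.

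**Figure D1:**
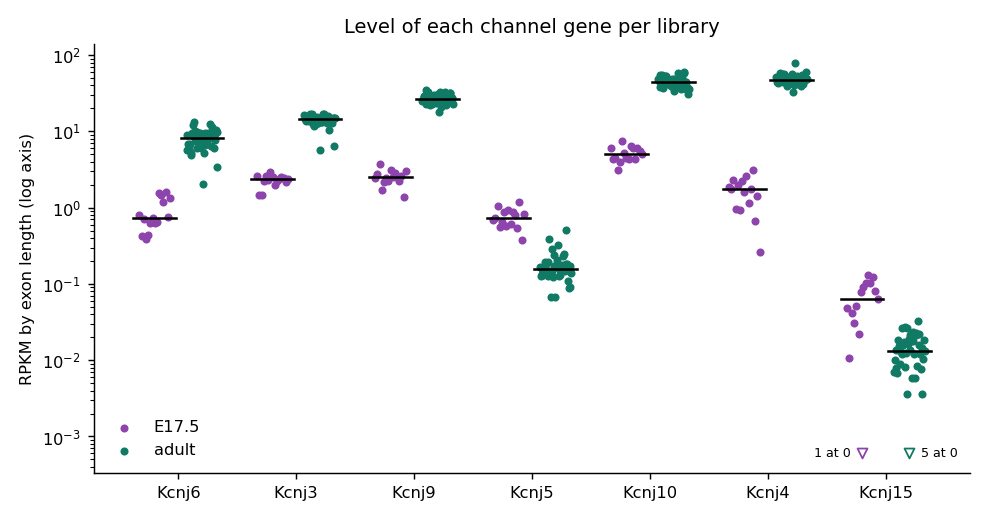
Level of each of the 7 genes in each library, in RPKM over all annotated exons on a log axis, for E17.5 forebrain (purple) and adult hippocampus (green), with a black bar at the median over libraries and open triangles for libraries with 0 reads. In adults the points of Kcnj4 and Kcnj10 lie highest and those of Kcnj5 and Kcnj15 lowest.

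Expression of Kcnj6 was higher in trisomic than in euploid embryonic forebrain, and that of its partner subunits was not seen to change. Kcnj6 levels in the 8 euploid embryos were 2.61, 1.71, 2.44, 1.57, 1.77, 2.29, 2.50 and 2.28 log2 CPM (56 to 304 reads), with a median of 2.28. In the 7 Ts65Dn embryos they were 2.33, 3.58, 3.49, 3.19, 3.60, 2.52 and 3.35 log2 CPM (217 to 685 reads), with a median of 3.35. Of the Ts65Dn libraries, 5 of 7 were above every euploid library, and replicates 1 and 6 fell within the euploid range.

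The log2 fold change of Kcnj6 was 1.04 (SE 0.21, 95% interval 0.59 to 1.48, edgeR adjusted p = 0.0218), a 2.05-fold difference. The log2 ratio of 3 to 2 gene copies is 0.585. Kcnj6 was the only one of the 7 genes to pass the threshold of 0.1 in embryos, where 1.35% of the 16395 genes tested passed it. With each library left out in turn, the estimate ranged from 0.97 to 1.15 and passed in all 15 fits. Embryo titles carry 1 of 2 numbers whose meaning the labels do not give, and within these sets the Kcnj6 difference was 1.05 (3 Ts65Dn and 4 euploid embryos) and 0.96 (4 and 4). The sex-linked gene Ddx3y was high, as in males, in euploid replicates 3 and 6 and in Ts65Dn replicates 1, 2 and 7. Its levels there were 5.6 to 5.8 log2 CPM, and at most −2.025 in the other embryos. Sex was not in the embryo fit.

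**Figure D2:**
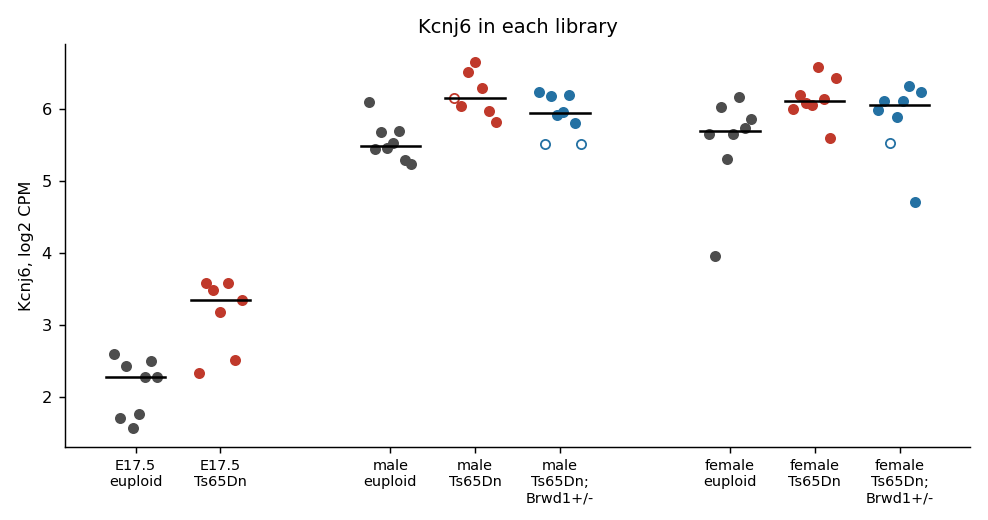
Kcnj6 in each library, in log2 CPM, by group, with a black bar at the group median and open circles for the 4 libraries without trisomic dosage. Medians are higher in Ts65Dn than in euploid mice at both ages, and no pair of groups of an age is fully separate.

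Cell-type markers varied between the same embryos. The Ts65Dn embryos with the lowest Kcnj6 levels, replicates 1, 6 and 4, also had the lowest summed thalamic markers of their group (72.7, 58.0 and 62.9 CPM), where the group's median was 191.3 and its highest value 587.4 CPM. They also had the highest sums of excitatory neuron markers (775.6, 826.2 and 766.4 CPM, group median 575.0), and of CA1 and progenitor markers. Their sums of dentate granule and CA3 markers were the lowest of the group. In euploid embryos the thalamic sum ranged from 92.3 to 349.8 CPM, with a median of 175.9. Replicate 6, with the lowest of these sums, was near its group's median in Kcnj6 (2.28 log2 CPM). Replicate 1, with the highest, was also the highest in Kcnj6 (2.61 log2 CPM). Astrocyte markers were at 545.8 to 947.1 CPM in euploid and 732.6 to 922.5 CPM in Ts65Dn embryos, and 7 of the 8 markers had a positive log2 fold change, of which Gja1, an astrocyte gap junction gene, passed the threshold (0.59, adjusted p = 0.033). Oligodendrocyte precursor markers were positive in 3 of 3, with Pdgfra past the threshold (0.39, adjusted p = 0.0546), and their sums were 77.7 to 136.4 CPM in euploid and 110.5 to 147.7 CPM in Ts65Dn embryos. Choroid plexus markers were positive in 7 of 7 (median log2 fold change 0.45) with none past the threshold and 2 at an unadjusted p under 0.05 (share over all genes not given). Their sums were 55.2 to 1428 CPM in euploid and 669.4 to 1550 CPM in Ts65Dn embryos. Triplicated genes were not taken out of these marker lists. The part of these markers in the Kcnj6 result was not tested. In bulk tissue, fewer cells of a type and less RNA per cell cannot be told apart.

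Kcnj15 was close to the limit of detection, and its difference did not pass the threshold. Euploid embryos had 0, 14, 1, 5, 5, 20, 3 and 14 Kcnj15 reads per library, and Ts65Dn embryos 25, 37, 17, 38, 14, 20 and 21. In CPM, the medians were 0.229 and 0.646, and the ranges overlapped only slightly (0 to 0.490 against 0.407 to 0.828). The log2 fold change was 1.33 (SE 0.37, 95% interval 0.56 to 2.098, edgeR adjusted p = 0.122). DESeq2 gave an adjusted p of 0.028, and without euploid replicate 8 the edgeR estimate also passed, with the smallest adjusted p of the fits that leave out 1 library (0.0723). In adult hippocampus, libraries held 0 to 19 Kcnj15 reads, with 0 in 5 of 47, and the gene did not pass the filter on low counts.

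**Figure D3:**
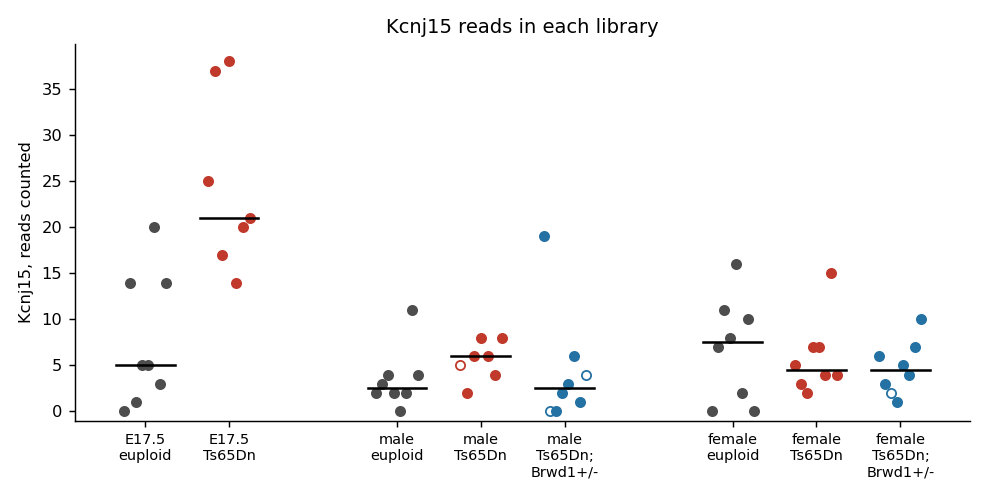
Kcnj15 reads per library, by group, with a black bar at the group median and open circles for the 4 libraries without trisomic dosage. Ts65Dn embryos had 14 to 38 reads and euploid embryos 0 to 20, and no adult library had more than 19.

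For the partner subunits in embryos, the intervals of the difference give how large a change could have been missed. Kcnj3 had a median of 3.67 log2 CPM in euploid (2.92 to 3.94) and 3.61 in Ts65Dn embryos (3.35 to 3.73), and its log2 fold change was 0.02 (95% interval −0.27 to 0.31, adjusted p = 0.956). Kcnj9 was at 2.87 to 4.01 log2 CPM in euploid and 2.59 to 3.70 in Ts65Dn embryos, with a log2 fold change of −0.08 (−0.43 to 0.27, adjusted p = 0.855). Kcnj5 was at 1.38 to 2.32 and 0.82 to 2.46 log2 CPM, and differed by −0.04 (−0.49 to 0.41, adjusted p = 0.944). Euploid and Ts65Dn embryos overlapped over most of the range of each gene. Kcnj10 differed by 0.14 (−0.18 to 0.46, adjusted p = 0.708). Kcnj4 was the most variable of the well-detected members, from −0.80 to 2.75 log2 CPM in Ts65Dn and 1.02 to 2.32 in euploid embryos, and its interval of −0.92 to 0.73 leaves large changes in either direction undetected (log2 fold change −0.10, adjusted p = 0.931).

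In male hippocampus, Kcnj6 was again higher in Ts65Dn than in euploid mice. The 8 euploid males had 6.10, 5.46, 5.69, 5.46, 5.53, 5.70, 5.30 and 5.24 log2 CPM of Kcnj6, with a median of 5.50. The 7 Ts65Dn males had 6.16, 6.05, 6.52, 6.66, 6.29, 5.98 and 5.82, with a median of 6.16, and the 8 Ts65Dn;Brwd1+/- males had 6.25, 5.53, 6.19, 5.93, 5.97, 6.20, 5.81 and 5.51, with a median of 5.95. The highest euploid library (replicate 1) was within the range of both trisomic groups, 4 of 7 Ts65Dn libraries and 3 of 8 Ts65Dn;Brwd1+/- libraries were above it, and the lowest Ts65Dn;Brwd1+/- values were those of replicates 2 and 8, which lack trisomic dosage.

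Kcnj6 rose by 0.65 on the log2 scale in male Ts65Dn mice (SE 0.14, 95% interval 0.36 to 0.94, edgeR adjusted p = 0.0289), or 1.57-fold. It was the only one of the 6 members tested to pass, against 0.795% of all 16851 genes tested. The difference was 0.67 without the library that lacks trisomic dosage (adjusted p = 0.0127) and 0.74 without the libraries that go against either label (adjusted p = 0.00475), and it passed in 23 of 23 fits with 1 library left out. With all 6 adult groups in the fit, whose spread is then shared with the females, the estimate was 0.66 and did not pass (adjusted p = 0.242).

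Return of Brwd1 to 2 copies in males was not accompanied by a change in any of these genes that passed the threshold, and edgeR called no gene of the 16851 tested (0.0%, with 7.48% at an unadjusted p under 0.05, and 1 gene by DESeq2). This comparison has the Ts65Dn libraries in common with the one above. Kcnj6 was at −0.29 in Ts65Dn;Brwd1+/- relative to Ts65Dn (95% interval −0.58 to 0.00, unadjusted p = 0.0504, edgeR adjusted p = 0.665), at −0.18 without the libraries that lack trisomic dosage (adjusted p = 0.923), and at −0.25 without those of doubtful sex as well (adjusted p = 0.611). The markers of dentate granule cells were lower in 4 of 4 in the same comparison (median log2 fold change −0.49, 3 at an unadjusted p under 0.05, none past the threshold). Their sums were 219.2 to 541.1 CPM in Ts65Dn and 177.8 to 322.1 CPM in Ts65Dn;Brwd1+/- males. The highest Ts65Dn sum was that of replicate 1, which lacks trisomic dosage, and the next was 354.7 CPM (replicate 4). The marker fold changes are not given without such libraries, and the part of these markers in the Kcnj6 value was not tested. Relative to euploid males, with the same control libraries, Kcnj6 was at 0.36 (SE 0.14, 0.08 to 0.65, adjusted p = 0.338, background 0.576%). Without the libraries of doubtful dosage it was at 0.48 (adjusted p = 0.109), and without those of doubtful sex as well it was at 0.48 and passed (adjusted p = 0.0814).

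Among the 2-copy members in males, the neuronal GIRK partners had narrow intervals around 0. Kcnj3 was at 6.15 to 6.41 log2 CPM in euploid, 5.96 to 6.48 in Ts65Dn and 6.04 to 6.31 in Ts65Dn;Brwd1+/- males, and its log2 fold change in Ts65Dn was 0.06 (95% interval −0.08 to 0.19, adjusted p = 0.875). Kcnj9 had medians of 6.81, 6.75 and 6.83 log2 CPM in the 3 genotypes, and a log2 fold change of −0.05 (−0.23 to 0.13, adjusted p = 0.916). The intervals of both genes lay below that of Kcnj6 in the same libraries, and the ranges of the genotypes overlapped. Kcnj10 and Kcnj4 differed by 0.04 (−0.12 to 0.19) and 0.05 (−0.09 to 0.20) in Ts65Dn. In Ts65Dn;Brwd1+/- relative to Ts65Dn, Kcnj10 was at −0.17 (−0.32 to −0.01, unadjusted p = 0.0359, adjusted p = 0.636) and Kcnj4 at −0.13 (adjusted p = 0.692), while Kcnj3 was at −0.09 (−0.23 to 0.05), Kcnj9 at 0.02 (−0.16 to 0.20) and Kcnj5 at −0.27 (−0.85 to 0.30). Relative to euploid males, Ts65Dn;Brwd1+/- males were at −0.03 for Kcnj3, −0.04 for Kcnj9, 0.01 for Kcnj5, −0.13 for Kcnj10 and −0.07 for Kcnj4, with adjusted p from 0.571 to 0.997.

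Kcnj5, at 12 to 142 reads per adult library, had single high libraries and no difference between genotypes that passed the threshold. In male Ts65Dn mice its values were −0.46, −0.21, −0.67, −0.12, −0.74, 0.88 and −0.51 log2 CPM, and replicate 6 alone was above 0. The log2 fold change from euploid was 0.28 (95% interval −0.30 to 0.85, adjusted p = 0.845) and fell to 0.01 without that library. In female Ts65Dn mice replicate 8 (1.28 log2 CPM) stood above the other 7 (−0.53 to 0.21). This library also had the highest summed thalamic markers of its group (167.3 CPM, group median 78.3 CPM), whose part in the Kcnj5 level was not tested.

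In female hippocampus, Kcnj6 was higher in Ts65Dn on average, but the difference did not pass the threshold. The 8 euploid females had 5.66, 3.97, 6.04, 5.31, 5.66, 6.17, 5.74 and 5.86 log2 CPM (median 5.70), the 8 Ts65Dn females 6.00, 6.19, 6.08, 6.07, 6.59, 6.14, 5.60 and 6.43 (median 6.11), and the 8 Ts65Dn;Brwd1+/- females 5.99, 6.12, 5.54, 5.89, 6.12, 6.32, 4.71 and 6.24 (median 6.06). All 3 ranges overlapped, with 3 of 8 Ts65Dn and 2 of 8 Ts65Dn;Brwd1+/- libraries above the highest euploid one. Euploid replicate 2 was the lowest library, far below the next euploid one.

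The log2 fold change of Kcnj6 in female Ts65Dn mice was 0.49 (SE 0.23, 95% interval 0.03 to 0.96, edgeR adjusted p = 0.289), or 1.41-fold. None of the 6 members tested passed with edgeR or DESeq2, while 3.17% of the 17146 genes tested passed with edgeR and DESeq2 called 1051. The unadjusted edgeR p of Kcnj6 was 0.0389. Without euploid replicate 2 the estimate was 0.36 (adjusted p = 0.247), and without both libraries that stood apart in Kcnj3 it was 0.36 with a smaller error (SE 0.14) and passed (adjusted p = 0.0912). Leaving out the libraries that go against their genotype or sex label gave 0.50 to 0.51 and did not pass. Relative to Ts65Dn, Ts65Dn;Brwd1+/- females were at −0.22 (−0.69 to 0.24, adjusted p = 1.0), in a comparison in which edgeR called no gene (0.0%, with 3.52% at an unadjusted p under 0.05, and 14 genes by DESeq2), and relative to euploid they were at 0.27 (−0.19 to 0.74, adjusted p = 0.688, background 0.729%). Without the libraries that lack trisomic dosage these values were −0.18 and 0.32, and without those that stood apart −0.11 and 0.25, and none passed.

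The libraries that stood apart were low in both GIRK1 and GIRK2 transcripts. Kcnj3 was at 4.88 log2 CPM in female euploid replicate 2 and 5.07 in female Ts65Dn;Brwd1+/- replicate 7, where the other libraries of the same groups were at 6.12 to 6.48 and 6.08 to 6.30. Kcnj9 was within its group's range in both, and Kcnj10 was the lowest of its group in both (7.52 and 7.36 log2 CPM). Xist was also low, at 7.83 and 7.65 log2 CPM, against group medians of 9.34 and 9.055. These libraries had the lowest summed astrocyte markers of all adult libraries (3861 and 3561 CPM, against group medians of 4977 and 4584 CPM), low dentate granule markers (162.6 and 153.5 CPM) and high choroid plexus markers (5149 and 5688 CPM). In 5 of the 6 adult groups the library with the highest choroid plexus sum was also the lowest of its group in Kcnj3, the exception being female euploid replicate 3. The part of these markers in the Kcnj6 and Kcnj3 levels was not tested.

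In females, Kcnj3 differed by 0.02 between Ts65Dn and euploid (95% interval −0.32 to 0.37, adjusted p = 0.966) and Kcnj9 by 0.03 (−0.19 to 0.25, adjusted p = 0.938). Kcnj10 was at −0.06 (−0.32 to 0.19) and Kcnj4 at −0.12 (−0.37 to 0.12). Kcnj5 was at 0.27 (−0.27 to 0.80). Intervals for Kcnj3 were wider than in males. Kcnj5 was at −0.66 in Ts65Dn;Brwd1+/- relative to Ts65Dn females (−1.21 to −0.12, unadjusted p = 0.0188, edgeR adjusted p = 1.0), and at −0.37 without the high Ts65Dn replicate 8. In that comparison Kcnj3 was at −0.04, Kcnj9 at 0.11, Kcnj10 at −0.12 and Kcnj4 at 0.15, each with an interval that spans 0. Relative to euploid females, Ts65Dn;Brwd1+/- females were at −0.01 for Kcnj3, 0.14 for Kcnj9, −0.40 for Kcnj5, −0.18 for Kcnj10 and 0.03 for Kcnj4, with adjusted p from 0.588 to 0.987.

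With the sexes averaged in a fit of all 47 adult libraries, Kcnj6 was 1.49-fold higher in Ts65Dn than in euploid hippocampus. Its log2 fold change was 0.58 (SE 0.14, 95% interval 0.30 to 0.86, edgeR adjusted p = 0.0128). Kcnj6 was the only one of the 6 members tested to pass, against 3.4% of the 17427 genes tested, and it also passed without the libraries that go against their labels (0.58 and 0.62) and without those that stood apart (0.51, adjusted p = 0.00122). The averaged differences of Kcnj3 (0.05, −0.14 to 0.24), Kcnj9 (−0.01, −0.15 to 0.14), Kcnj10 (−0.01, −0.16 to 0.14) and Kcnj4 (−0.03, −0.17 to 0.11) all had intervals below the copy-number ratio of 0.585. For Kcnj5 the interval was −0.11 to 0.66.

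For Ts65Dn;Brwd1+/- relative to Ts65Dn over both sexes, Kcnj6 was at −0.26 (−0.54 to 0.02, unadjusted p = 0.0687, adjusted p = 0.921), and edgeR called no gene (0.0%, with 5.11% at an unadjusted p under 0.05, and 4 genes by DESeq2). The value was −0.18 without the libraries that lack trisomic dosage and −0.22 without those of doubtful sex as well. Dentate granule markers were lower in 4 of 4 in this fit, which holds the same males (median −0.32, 3 at an unadjusted p under 0.05). In females alone 3 of 4 were lower (median −0.215, 1 at an unadjusted p under 0.05, 3.52% of all genes). Kcnj5 was at −0.47 (−0.86 to −0.08, adjusted p = 0.917), Kcnj10 at −0.15 (−0.30 to 0.00), and Kcnj3, Kcnj9 and Kcnj4 at −0.07, 0.06 and 0.01. A difference between the sexes in the Kcnj6 response was not detected: the effect of the trisomy was −0.15 in females relative to males (−0.71 to 0.40, adjusted p = 0.894), and that of Brwd1 copy number 0.06 (−0.50 to 0.62, adjusted p = 1.0). The other members had interaction terms of −0.17 to 0.09 for the trisomy and −0.40 to 0.27 for Brwd1 copy number. The bounds of both Kcnj6 intervals reach the size of the trisomy effect itself. With edgeR no gene passed either interaction (0.0%), with 11.1% and 3.73% of genes at an unadjusted p under 0.05 and 100 genes and 1 gene called by DESeq2.

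**Figure D4:**
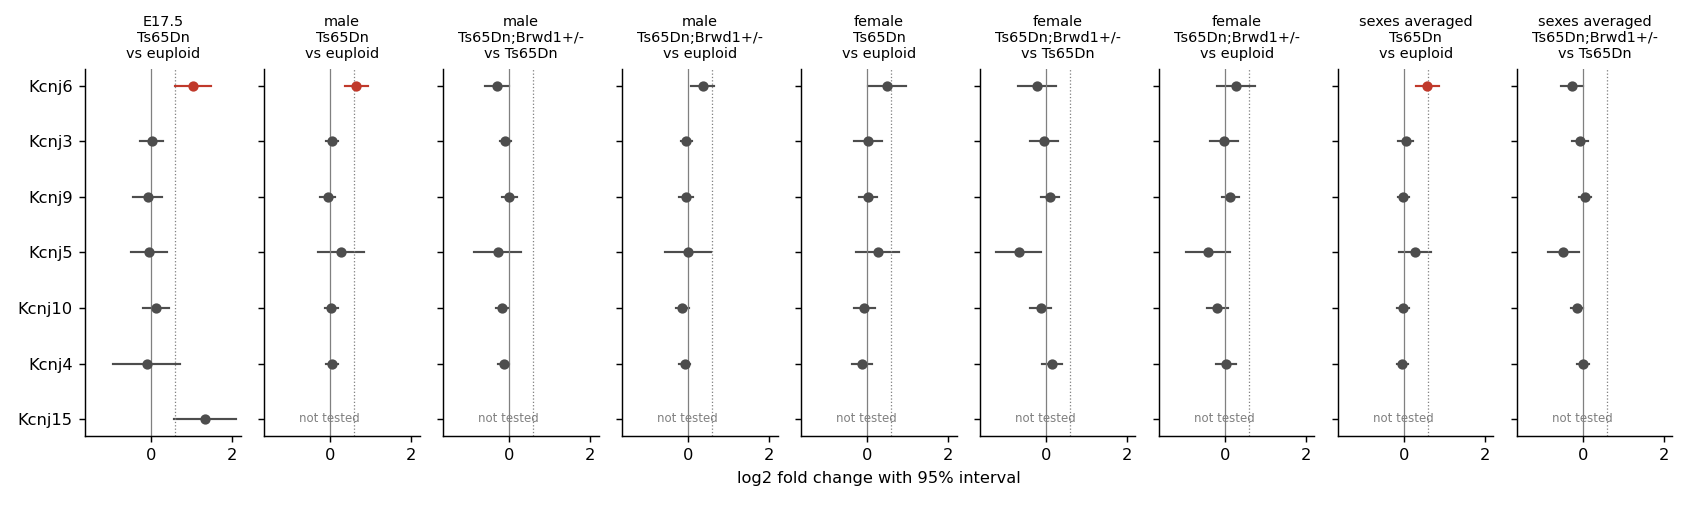
Log2 fold change of each tested member in each comparison, with its 95% interval, in red where edgeR's adjusted p is under 0.1 and with a dotted line at 0.585, the log2 ratio of 3 to 2 copies. Kcnj6 is red in embryos, in males and with the sexes averaged, and no 2-copy member is red, although the intervals of Kcnj5 in Ts65Dn;Brwd1+/- females and averaged, and of Kcnj10 in Ts65Dn;Brwd1+/- males, lie below 0 relative to Ts65Dn.

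Since a channel is built from several subunits, Kcnj6 was also expressed relative to Kcnj3 within each library, as a difference of log2 CPM that does not depend on library scaling. In embryos this difference was −1.98 to −0.48 in euploid (median −1.38) and −1.02 to 0.04 in Ts65Dn libraries (median −0.27). In males it was −0.98 to −0.31 in euploid (median −0.68), −0.29 to 0.18 in Ts65Dn (median −0.13) and −0.75 to −0.01 in Ts65Dn;Brwd1+/- libraries (median −0.19). The euploid and Ts65Dn males did not overlap, although by a narrow margin at the library that lacks trisomic dosage (−0.29, the lowest of its group). By its own level Kcnj6 did overlap between these males. The share of tested genes whose own levels did not overlap and were higher in male Ts65Dn was 0.142%. No such share was computed for differences between genes. Relative to Kcnj9 the same males overlapped (−1.94 to −0.66 in euploid, −1.09 to 0.07 in Ts65Dn). Relative to Kcnj10 they overlapped as well (−2.92 to −1.95 and −2.17 to −1.51).

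In females, the same difference was −0.92 to −0.10 in euploid (median −0.52), −0.21 to 0.24 in Ts65Dn (median −0.05) and −0.55 to 0.02 in Ts65Dn;Brwd1+/- libraries (median −0.16). Only 1 euploid female, replicate 3, was within the Ts65Dn range. Of the Ts65Dn;Brwd1+/- libraries, the lowest values in both sexes belonged to those without trisomic dosage (−0.69 and −0.75 in males, −0.55 in the female), and the rest were at −0.34 to −0.01 in males and −0.36 to 0.02 in females. Female euploid replicate 2 (−0.92) and female Ts65Dn;Brwd1+/- replicate 7 (−0.36) lay less far from their groups in this difference than in Kcnj6 itself. Relative to Kcnj9, medians of Kcnj6 were −1.37 and −0.06 in euploid and Ts65Dn embryos, −1.32, −0.71 and −0.99 in euploid, Ts65Dn and Ts65Dn;Brwd1+/- males, and −1.11, −0.74 and −0.98 in females.

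**Figure D5:**
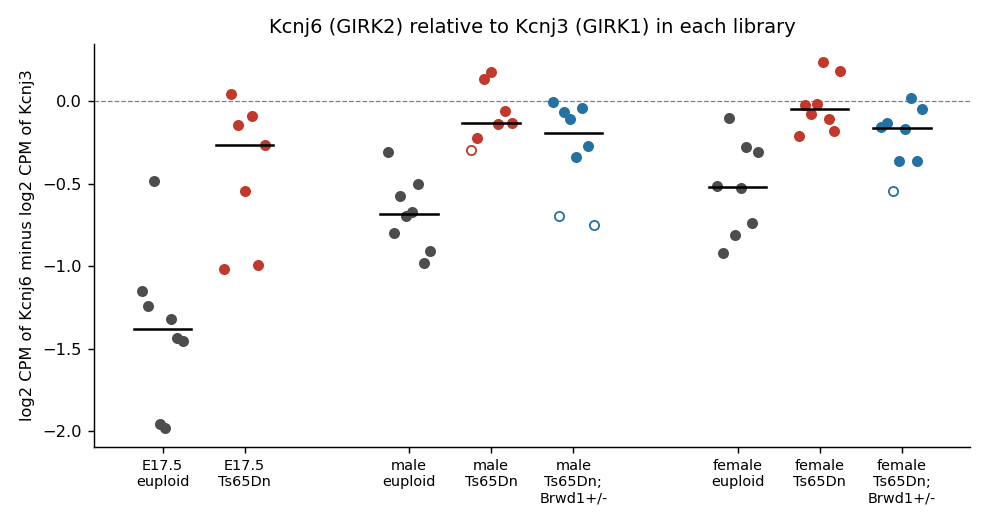
Kcnj6 minus Kcnj3 in log2 CPM in each library, by group, with a black bar at the group median and open circles for the 4 libraries without trisomic dosage. Medians run from −1.38 to −0.27 in embryos, and the lowest Ts65Dn;Brwd1+/- points of both sexes are open circles.

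Kcnj6 varied more within groups than most genes. Its standard deviation within groups was 0.458 log2 CPM in embryos and 0.429 in adults, against medians of 0.211 and 0.206 over the genes tested. Across the 47 adult libraries, after group means were subtracted, Kcnj6 went with Kcnj3 (Pearson r = 0.865, or 0.684 over the 45 libraries without those that stood apart), less with Kcnj10 (0.548, or 0.388), and had a negative correlation with Kcnj9 (−0.379, or −0.396). The genes most like Kcnj6 in this measure were Plxna4 (r = 0.914), Lyst (0.909) and Dgkh (0.903), which were at 0.812, 0.792 and 0.781 without these libraries. For Kcnj3 they were Ash1l (0.963), Mef2a (0.962) and Ncor1 (0.961), which fell to 0.859 to 0.866. For Kcnj9 they were Plxdc1 (0.863), Arl4c (0.86) and Sowahb (0.857), for Kcnj10 Adarb1 (0.787), Dennd5a (0.786) and Acsl6 (0.776), and for Kcnj4 Smarcd1 (0.817), Fscn1 (0.79) and 2900079G21Rik (0.779). In the 15 embryos, Kcnma1 (0.916), Grin3a (0.908) and Wwc2 (0.906) were most like Kcnj6, and Golga3 (0.913), Mtmr4 (0.889) and Tmem170 (0.887) most like Kcnj3. Genes of a library have its depth and makeup in common, and these values are descriptions.

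Set beside the other triplicated genes of chromosomes 16 and 17, the estimate for Kcnj6 ranked high in embryos and males and lower in females. In embryos, 5 of the 131 others tested had a larger one than Kcnj6 (median of the others 0.55, quartiles 0.47 and 0.69), and none had a larger one than Kcnj15. In males, 15 of 132 were larger (median 0.50), or 30 of 133 without the library that lacks trisomic dosage (median 0.57). In females 78 of 133 were larger (median 0.53), or 103 without the libraries that stood apart. The SE of Kcnj6 in embryos was 0.21, above the median SE of the others (0.117), and 31 of the 131 had a larger one. In males its SE was 0.14 (median of the others 0.119) and in females 0.226 (median 0.121). Kcnj15 in embryos had an SE of 0.365, and the ranks take no account of these errors. For Ts65Dn;Brwd1+/- relative to Ts65Dn over both sexes, 131 of 136 other triplicated genes had a larger log2 fold change than the −0.26 of Kcnj6 (median −0.07), and 122 of 135 a larger one than its −0.18 without the libraries that lack trisomic dosage (median −0.01).

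All 14 genes near Kcnj6 and Kcnj15 on chromosome 16 had a positive log2 fold change in Ts65Dn embryos (median 0.57, all tested genes −0.01). Of these, 11 passed the threshold, where 1.35% of all genes passed, among them Get1 (0.61), Brwd1 (0.56), Vps26c (0.63) and Dyrk1a, a protein kinase gene (0.52). In Ts65Dn males 13 of 14 were positive (median 0.47) and 10 passed (background 0.795%), with Hmgn1 at 0.52, Brwd1 at 0.53, B3galt5 at 0.46 and Vps26c at 0.60. Without the library that lacks trisomic dosage 12 of 14 passed. In Ts65Dn females all 14 were positive (median 0.51) and 12 passed (background 3.17%), with Ttc3 at 0.73, Vps26c at 0.67, Get1 at 0.60 and Hlcs at 0.69. Without the libraries that stood apart 14 of 14 passed. In Ts65Dn;Brwd1+/- relative to euploid males all 14 were positive (median 0.38). Of these, 7 passed (background 0.576%, and 11 passed without the libraries that lack trisomic dosage), with Psmg1 at 0.46, Hmgn1 at 0.41, Pigp at 0.50 and Vps26c at 0.55. In Ts65Dn;Brwd1+/- relative to euploid females all 14 were positive (median 0.48). Of these, 9 passed (background 0.729%, and 11 passed without the libraries that lack trisomic dosage), with Ttc3 at 0.64, Get1 at 0.54, Vps26c at 0.59 and Ets2 at 0.49. Between Ts65Dn;Brwd1+/- and Ts65Dn none of the 14 passed in either sex with edgeR or DESeq2. An unadjusted p under 0.05 was seen for 2 of them in males (7.48% of all genes) and 1 in females (3.52%). Shares over all genes are not given for the fits with libraries left out.

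Few of the genes that act upstream of GIRK channels passed the threshold. Of 20 receptors that open the channels through inhibitory G proteins, none passed in embryos (median log2 fold change 0.13, all tested genes −0.01) or in males (median −0.14, all genes 0.00) with edgeR or DESeq2. At an unadjusted p under 0.05 were 0 and 4 of them (share over all genes not given). Of these receptors 1 of 20 passed as higher in Ts65Dn females, where 3.17% of all genes passed. It was Cnr1, the cannabinoid CB1 receptor (0.42, SE 0.09, edgeR adjusted p = 0.0155). DESeq2 called 2 of the receptors in this comparison, and 1051 of all 17146 genes. With the sexes averaged (background 3.4%), Cnr1 (0.28, adjusted p = 0.00176) and Gabbr1, a subunit of the GABA-B receptor (0.13, SE 0.03, adjusted p = 0.0127), rose and the other 18 did not pass. DESeq2 called 3 of the receptors there, and 776 of all 17427 genes. Adora1, the adenosine A1 receptor, also passed without the libraries that lack trisomic dosage (0.14, adjusted p = 0.0947) and without those that stood apart (0.12, adjusted p = 0.0923). In Ts65Dn;Brwd1+/- relative to euploid males no receptor passed, and Cnr1 did once the libraries that lack trisomic dosage were left out (0.21, adjusted p = 0.0612).

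Of 22 G protein, RGS and partner genes, none passed in embryos or males with either tool. At an unadjusted p under 0.05 were 1 and 2 of them (share over all genes not given). Without the libraries against their labels, Gnb5, a G protein beta subunit, passed in male Ts65Dn (0.14, adjusted p = 0.0653) and in male Ts65Dn;Brwd1+/- mice (0.13, adjusted p = 0.0475), both relative to euploid. Rgs4, which speeds the turning off of G protein alpha subunits, rose by 0.43 in Ts65Dn females (adjusted p = 0.025) and by 0.43 in Ts65Dn;Brwd1+/- females (adjusted p = 0.0454), both relative to the same euploid libraries. In Ts65Dn females DESeq2 called 3 of the 22, and 1051 of all 17146 genes. Gng4, a G protein gamma subunit, was at −0.78 with the sexes averaged (SE 0.23, adjusted p = 0.0608), a call that was lost without the libraries that lack trisomic dosage (−0.75, adjusted p = 0.102) and without all those against their labels (−0.30, adjusted p = 0.386). Without the libraries that stood apart, 3 of the 22 passed as higher and 1 (Gng4) as lower in Ts65Dn females (share over all genes not given).

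Of 7 other inward rectifier genes tested, none passed between Ts65Dn and euploid in embryos, males or females with edgeR. DESeq2 called 1, 0 and 2 of them, and 575 of 16395, 237 of 16851 and 1051 of 17146 genes in all. With edgeR, 2, 1 and 2 of the rectifiers had an unadjusted p under 0.05 (share over all genes not given). Of these rectifiers, Kcnj14 (Kir2.4) rose by 0.42 with the sexes averaged (SE 0.11, adjusted p = 0.0293, background 3.4%). In Ts65Dn females Kcnj16 passed without the libraries against their labels (0.49, adjusted p = 0.0749) and Kcnj16 and Kcnj14 without those that stood apart (0.43 and 0.52, shares over all genes not given). Between Ts65Dn;Brwd1+/- and Ts65Dn none of the genes of these 3 lists passed in either sex with edgeR or DESeq2. An unadjusted p under 0.05 was seen for 4 of them in males (7.48% of all genes) and 1 in females (3.52%).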

How the data were processed

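Forebrain of E17.5 embryos (15 libraries) and hippocampus of 6-week-old mice (47 libraries) were sequenced as single reads from polyadenylated RNA (TruSeq RNA v2, not stated to be stranded), with the reads of the flow cells of a sample concatenated. The authors aligned reads to mm10 with HISAT2 (version 2.1.0 per the submitters' processing notes) and counted them with featureCounts 2.0.1, and deposited raw counts per gene, unnormalized. Rows are Entrez identifiers, and 25275 of 27179 were matched to RefSeq symbols.

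Counts were tested with edgeR 4.0.16 in R 4.3.3 (TMM, filterByExpr with a minimum count of 10, robust quasi-likelihood test), with p-values adjusted by Benjamini-Hochberg over all genes tested and a threshold of 0.1. The genotypes of a sex were in 1 fit, and both sexes in 1 fit for interactions and averages. Levels were computed as log2 CPM (prior count 0.5) and RPKM. DESeq2 1.42.0, RUVr factors from edgeR deviance residuals, other filters and scalings, a block on embryo number and the omission of libraries were alternatives. The omission of the libraries that go against their labels or stood apart was chosen after seeing the data. The share of all genes that passed in these fits is not given. Replicate numbers of the embryo titles did not pair the samples (r from −0.133 to 0.229 over 7 pairs), and adult labels have none. Adult titles carry a code with the letter B or T, whose meaning is not given and which was not in the fits. The letter T occurs only among female Ts65Dn and male Ts65Dn;Brwd1+/- libraries, and in no euploid library.

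The 7 genes and the lists were chosen with earlier results of these data known. The 7 genes are given in every comparison, by range in the interactions. Of each other list (cell-type markers where they bear on a member), called genes are named where 4 or fewer, otherwise those with the 4 smallest p-values, and the 3 genes with the highest correlation to a member. Depth (14.9 to 137.1 M reads) limits Kcnj15 most, and also Kcnj5 and, in embryos, Kcnj4, whose counts were low. The scripts were tested on simulated data. The filter stretches of 2 of the 7 genes are not reported here.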

Additional observations from a re-analysis of the deposited data

Results flagged for a closer look

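Of 80 groups of member values checked for a sample far from the others, 9 had one, where chance flags about 1 group in 20. Female euploid replicate 2 was far below its group in Kcnj6 (3.97 log2 CPM, others 5.31 to 6.17), in Kcnj3 (4.88, others 6.12 to 6.48) and in Kcnj6 relative to Kcnj10 (−3.56, others −2.56 to −1.85). Female Ts65Dn;Brwd1+/- replicate 7 was far below its group in Kcnj3 (5.07, others 6.08 to 6.30). Kcnj5 was high in male Ts65Dn replicate 6 (0.88, others −0.74 to −0.12) and in female Ts65Dn replicate 8 (1.28, others −0.53 to 0.21). Among Ts65Dn embryos, Kcnj9 was low in replicate 6 (2.59, others 3.25 to 3.70), and Kcnj6 relative to Kcnj9 was low in replicate 1 (−1.10, others −0.35 to 0.12). Kcnj15 was at −6.84 log2 CPM in male euploid replicate 5, which is the value of a library with 0 reads (others −4.26 to −3.02).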

How the results depend on the processing

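The number of members called was 1 in embryos, and became 2 (Kcnj6 and Kcnj15) with 1, 2 or 3 RUVr factors, with DESeq2 and with DESeq2 and 3 factors, 0 with the replicate block and 1 to 2 with a library left out. Under the replicate block Kcnj6 was at 1.03 (adjusted p = 0.186), and the embryo numbers were not found to pair the samples. In male Ts65Dn mice the count of 1 became 0 with all 6 adult groups. For Ts65Dn;Brwd1+/- relative to euploid, in both sexes, and for female Ts65Dn relative to euploid, 0 became 1 (Kcnj6) with 1, 2 or 3 RUVr factors and with DESeq2 and 3 factors. In males the first also became 1 without the libraries against genotype or sex labels, and in females the last became 1 without the libraries that stood apart. For Ts65Dn;Brwd1+/- relative to Ts65Dn, 0 became 1 in females with DESeq2 and 3 factors. With the sexes averaged it became 1 with 1, 2 or 3 factors and 2 (Kcnj6 and Kcnj3) with DESeq2 and 3 factors. The cause of these changes was not tested. No called member changed direction under these alternatives.

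Over all genes, 221 calls in embryos ranged from 115 to 4040 under the alternatives (122 to 456 with a library left out, 122 with the replicate block), 134 in male Ts65Dn from 83 to 1193 (83 to 224), 97 in male Ts65Dn;Brwd1+/- relative to euploid from 37 to 1316 (32 to 178), 543 in female Ts65Dn from 264 to 4376 (285 to 1603), 125 in female Ts65Dn;Brwd1+/- relative to euploid from 67 to 3553 (82 to 1376), and 593 with the sexes averaged from 380 to 2840. For Ts65Dn;Brwd1+/- relative to Ts65Dn, 0 became up to 997 in males, 880 in females and 1638 averaged, and the interactions up to 2592 and 238, each highest with DESeq2 and 3 factors. Leaving out single libraries was not run for the fits over both sexes. Counts of Kcnj15 in adults were too low for a fold change.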
